A study of Homo sapiens with 12 samples.

Results

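PC9 cells that remained after 8 days in 2 uM erlotinib were compared with HCC827 cells kept in the same drug for the same time. Both are lung adenocarcinoma cell lines that carry an activating in-frame deletion in EGFR, and erlotinib inhibits the kinase that this gene encodes. The comparison rests on 6 of the 12 arrays of the series, which were the 3 erlotinib arrays of each line as the sample labels give them. The other 6 arrays hold the same lines after 8 days in DMSO, the solvent, with 3 arrays for each line, and they were used to show which differences were present without drug.

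All groups grew in RPMI medium with 10% serum, and medium with fresh agent was given after 4 days. Both erlotinib groups began from the same number of plated cells, in a pair of large flasks. The DMSO groups began from fewer cells in dishes by the treatment protocol, while the series' design text names flasks for every group. Thus the lines were handled alike within each agent, and vessel, plating density and agent cannot be told apart between agents. Each line is a single cell line, so every difference below is between these lines and not between classes of tumour. Nothing in the labels tells if replicate arrays stem from cultures of their own, so p-values measure only the spread between these arrays, which may be technical. In bulk RNA, fewer cells that express a gene and less of its RNA per cell cannot be told apart.

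EGFR signals through the RAS, RAF, MEK and ERK kinases, whose output includes the dual-specificity phosphatases and the ligands of the receptor itself. When the kinase is blocked, most cells of such lines stop dividing or die, and a fraction persists, usually called drug-tolerant. NRF2 is a transcription factor that drives detoxifying and antioxidant enzymes through antioxidant response elements in promoters. Interferons act through the STAT and IRF factors, which bind interferon-stimulated response elements in the promoters of antiviral genes.

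The largest one-sided gene lists of this comparison were the interferon-response genes, higher in HCC827, and the NRF2 targets, higher in PC9, and their promoters are shown for that reason. Windows of 90 bases come from the RefSeq promoter sequences on GRCh38.p14, 5′ to 3′ on the strand of the gene. Only the 250 bases before the start of the gene were searched, on both strands, and overlapping matches were counted separately. Capitals mark GAAANNGAA or its reverse complement in the first 4 sequences and TGACNNNGC or its reverse complement in the last 3, where N is any base. The interferon-response genes shown are the 4 with the largest differences whose matches all lie within one window, and the NRF2 targets shown are the 3 with the largest differences among those with a match. The windows are IFI27 at chr14:94110594-94110683 (plus strand), IFI44 at chr1:78649699-78649788 (plus), IFIT1 at chr10:89392474-89392563 (plus), IFIT3 at chr10:89327818-89327907 (plus), GPX2 at chr14:64942819-64942908 (minus), PGD at chr1:10398822-10398911 (plus) and GCLM at chr1:93909431-93909520 (minus).
IFI27: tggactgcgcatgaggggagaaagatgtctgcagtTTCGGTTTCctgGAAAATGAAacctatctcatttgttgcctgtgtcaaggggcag
IFI44: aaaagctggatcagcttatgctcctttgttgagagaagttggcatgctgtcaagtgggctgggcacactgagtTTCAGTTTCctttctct
IFIT1: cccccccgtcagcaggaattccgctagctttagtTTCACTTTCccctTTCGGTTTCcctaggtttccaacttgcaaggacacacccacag
IFIT3: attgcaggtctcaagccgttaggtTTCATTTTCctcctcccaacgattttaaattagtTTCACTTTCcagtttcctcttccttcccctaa
GPX2: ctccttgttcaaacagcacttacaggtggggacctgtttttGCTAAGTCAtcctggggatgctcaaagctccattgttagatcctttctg
PGD: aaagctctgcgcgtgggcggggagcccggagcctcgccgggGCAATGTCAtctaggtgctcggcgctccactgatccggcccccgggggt
GCLM: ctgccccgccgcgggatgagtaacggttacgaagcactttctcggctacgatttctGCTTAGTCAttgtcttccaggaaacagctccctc
Promoters were matched for 32 of the 39 interferon-response genes tested, and 22 of them (68.8%) held GAAANNGAA, against 8.41% of 27195 genes in the promoter table and 7.37% of the 10688 tested genes with a promoter. Of 16 class I antigen presentation genes with a promoter, 7 (43.8%) held it. TGACNNNGC was found for 5 of 21 NRF2 targets with a promoter (23.8%), against 13.2% of the table and 1715 of the 10688 tested genes, so these letters were common in promoters at large. A match describes these letters only and is not evidence of a bound site.

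The signals are MAS5 intensities from Affymetrix arrays, scaled by the authors so that the trimmed mean of every array was 150. The median probe set had a signal of 12.6 to 14.5 on the 6 erlotinib arrays, and signals at or below that level have no order here, because detection calls were not used. Differences are given as PC9 minus HCC827 on the log2(signal + 8) scale, which understates the change of low genes. Of 19740 genes with a probe set of their own, 13181 reached the median signal of the table in at least 1 group and were tested with limma. The 3 arrays of a line were close to each other, with correlations of log2 signals of 0.9950 to 0.9952 in PC9 and 0.9956 to 0.9961 in HCC827, while pairs across the lines gave 0.8361 to 0.8412.

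Both lines kept high signals of the epithelial markers EPCAM, CDH1, KRT7, KRT8, KRT18 and KRT19, whose sum ran from 15027 to 17564 in PC9 and from 13165 to 14418 in HCC827. The sum of 5 alveolar type 2 markers was 94.8 to 120 in PC9 and 1866 to 2185 in HCC827, nearly all of it NKX2-1. The 4 leukocyte markers measured, PTPRC, CD3E, CD14 and LYZ, were at background in both, with sums of 9.3 to 13.8 and 4.4 to 9.2. Of 4 endothelial markers, PECAM1 and CDH5 were measured in PC9 and VWF and TEK were at background, with a sum of 654 to 705 in PC9 and 9.6 to 18 in HCC827. Of 6 fibroblast markers, LUM and COL1A1 were measured in both lines and DCN, COL3A1, PDGFRA and PDGFRB were at or near background, with sums of 384 to 463 and 623 to 685. The part of other cell types in the differences was not tested, beyond these levels. RNA quality leaned the same way as the lines: the 3′ to 5′ signal ratio of GAPDH was 1.20, 1.18 and 1.17 in PC9 and 1.26, 1.30 and 1.54 in HCC827. That ordering had an exact two-sided permutation p of 0.1, the smallest that 3 arrays against 3 can give. The actin ratio was 2.22 ± 0.27 in PC9 and 3.03 ± 0.60 in HCC827 (SD, n = 3, exact permutation p = 0.2). With the actin ratio as a covariate, 8531 genes were called between the erlotinib groups and 3061 of them by 2-fold or more.

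The lines in erlotinib differed in most of the genes tested. At an adjusted p under 0.05 (limma, Benjamini-Hochberg over all 13181 genes), 10073 genes differed, or 76.4%, of which 4787 (36.3%) were higher in PC9 and 5286 (40.1%) higher in HCC827. Because so many genes passed, a gene list is read below against these shares and against the median difference over all genes tested, which was -0.04. At 2-fold or more, 3145 genes (23.9%) differed, of which 1456 (11.0%) were higher in PC9 and 1689 (12.8%) higher in HCC827. At 16-fold or more there were 124 (0.941%) and 110 (0.835%). The 3 arrays of one line lay wholly beyond the 3 of the other for 10119 genes, or 76.8%.

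The gene furthest above HCC827 in PC9 was UCHL1, a ubiquitin hydrolase that is abundant in neurons. Its signals were 3514.5, 3907.2 and 3694.0 in PC9 and 3.4, 0.9 and 4.5 in HCC827, a difference of 8.42 ± 0.15 (SE; limma adjusted p = 2.52e-17). Every PC9 array was bright and every HCC827 array was at background. PTGIS, the prostacyclin synthase, had 2135.1, 2035.4 and 2169.5 against 2.4, 3.6 and 1. RARRES1, a gene induced by retinoids, had 2902.5, 2874.7 and 2941.0 against 5.3, 5.8 and 11.3. TIMP3, an inhibitor of matrix metalloproteinases, had 1912.6, 2160.0 and 2121.5 against 4.3, 6.4 and 1.2. In each of these the HCC827 arrays were at background, so the sizes of the differences, 7.69 for PTGIS, 7.58 for RARRES1 and 7.46 for TIMP3, are set in part by the added 8. The other genes among the 10 furthest in this direction were the cancer-testis antigen MAGEA4 (7.39), the raft protein MAL (7.17), the guanine deaminase GDA (7.16), the sulfatase SULF2 (7.04), the matrix Gla protein MGP (7.04) and the aldo-keto reductase AKR1C2 (6.96). AKR1C2 is nearly identical in sequence to AKR1C1, and MAGEA4 shares sequence with other genes of its family, so the member cannot be told with certainty from the array.

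In the opposite direction the largest difference was that of BICC1, an RNA-binding protein. Its signals were 1571.1, 1515.7 and 1622.6 in HCC827 and 0.9, 0.3 and 0.2 in PC9, a difference of -7.54 ± 0.09 (SE; limma adjusted p = 4.83e-19). Again one line was bright and the other at background on every array. CADM1, an adhesion molecule of the immunoglobulin superfamily, had 1439.6, 1327.0 and 1454.6 in HCC827 against 1.3, 0.8 and 3 in PC9. SERPINA1, which encodes alpha-1 antitrypsin, had 846.2, 907.8 and 833.2 against 0.1, 0.3 and 0.5. IFI16, a sensor of foreign DNA that interferon induces, had 1202.4, 1187.2 and 1213.7 against 4.5, 5.2 and 6.7. The groups of these genes were far apart on all arrays, with differences of -7.19 for CADM1, -6.71 for SERPINA1 and -6.49 for IFI16. The remaining genes of the 10 were BASP1 (-7.12), RFLNB (-6.94), FOXN3 (-6.82), DYNLT3 (-6.58), TM4SF18 (-6.53) and CYB5B (-6.47).

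**Figure D1:**
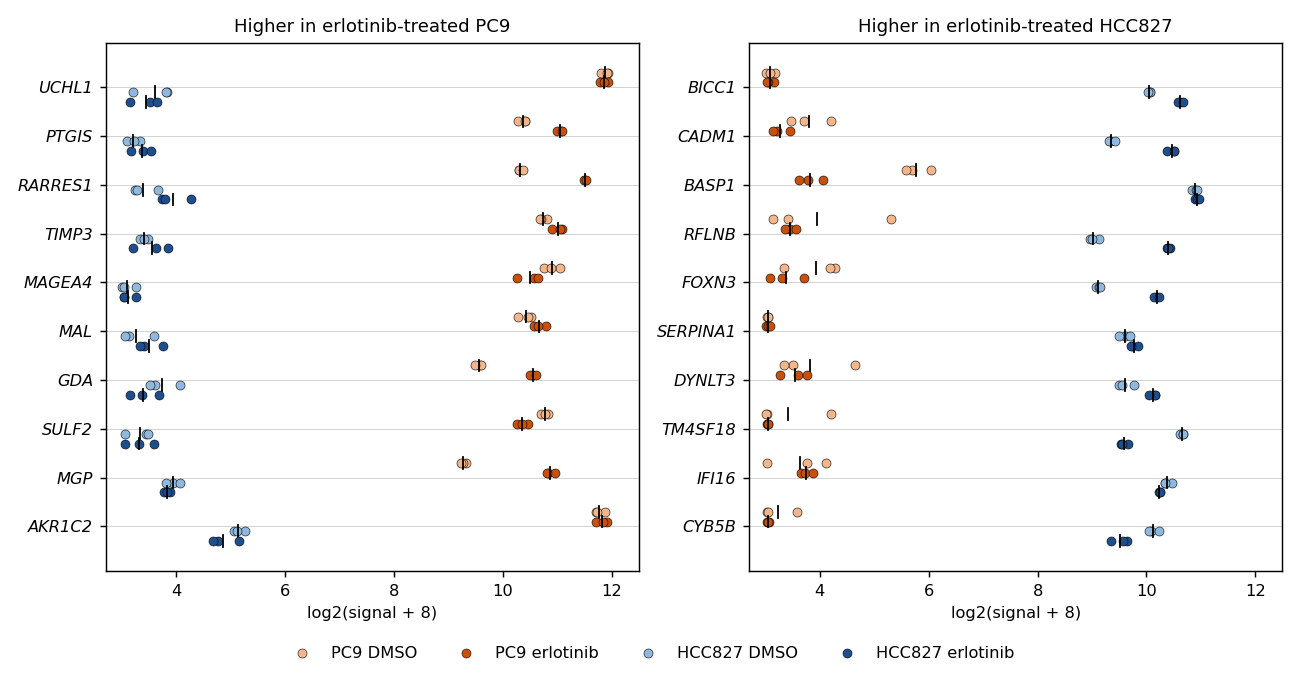
Signals of the 10 genes furthest apart in each direction, as log2(signal + 8) on the horizontal axis, with 1 point for each of the 3 arrays of the 4 groups and a bar at the group mean. The erlotinib groups (dark) stand far apart for every gene, and the DMSO groups (light) of the 2 lines stand apart in the same direction. The gap was 8.42 in erlotinib and 8.26 in DMSO for UCHL1, and -7.12 and -5.12 for BASP1, whose gap difference passed the test.

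At the receptor, EGFR itself was higher in HCC827. Its signals were 2117.6, 2380.8 and 2309.1 in HCC827 and 817.1, 905.7 and 841.8 in PC9, so the groups did not overlap (difference -1.40 ± 0.06, SE; limma adjusted p = 6.57e-13). The gap was -0.92 in DMSO, and the widening by -0.48 passed the test of the gap difference (limma adjusted p = 0.000117). MET, the receptor for hepatocyte growth factor and a known route around EGFR inhibition, was also higher in HCC827, at 2687.2 ± 71.6 against 1205.8 ± 14.3 (SD, n = 3). ERBB2, a partner of EGFR, was higher in HCC827 by a smaller amount (-0.57). ERBB3, the partner that couples to PI3 kinase, differed by 0.16 with overlapping arrays (limma adjusted p = 0.0398), a call that 11 of the alternatives did not keep.

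AXL, a receptor often linked to tolerance of EGFR inhibitors, was higher in PC9. Its signals were 1460.5, 1436.9 and 1470.0 in PC9 and 359.1, 361.6 and 348.1 in HCC827, with no overlap (difference 2.01 ± 0.07, SE). Among 23 receptor tyrosine kinases tested, 11 were higher in HCC827, 5 higher in PC9 and 7 were not called, with a median of -0.19. EPHB6 (3.36) and EPHA4 (2.78), both ephrin receptors, were the others furthest toward PC9. MERTK (-2.27), a relative of AXL, and ROR1 (-2.08), a receptor for WNT5A, were furthest toward HCC827.

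The ligands of the EGFR family divided. Of 7 tested, 4 were higher in HCC827, each by 2-fold or more, and 3 were higher in PC9, of which 1 reached 2-fold. NRG1, which binds ERBB3, had signals of 344.8, 398.3 and 376.4 in HCC827 and 0.4, 5.5 and 1.5 in PC9. EREG, or epiregulin, had 1472.4, 1484.0 and 1672.6 against 112.9, 116.4 and 166.9, and HBEGF had 732.3, 830.2 and 727.9 against 105.6, 134.5 and 139.5. For all of these the HCC827 arrays were above every PC9 array, with differences of -5.21 for NRG1, -3.49 for EREG and -2.53 for HBEGF. HBEGF had stood the other way in DMSO, with a mean of 401.9 in PC9 and 156.6 in HCC827, and its gap difference was -3.84 (limma adjusted p = 4.29e-12). NRG4 (1.29), EGF (0.79) and TGFA (0.33) were higher in PC9, and NRG4 and EGF had low signals in both lines.

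Genes that report ERK output were lower in erlotinib-treated PC9. Of 22 tested, 16 were higher in HCC827, 5 higher in PC9 and 1 was not called, with a median of -0.65 against 0.01 for the same genes in DMSO. The gap difference passed the test for 15 of them, 13 toward HCC827 and 2 toward PC9, where the share over all genes was 23.9% toward HCC827 and 21.2% toward PC9. DUSP6, an ERK phosphatase that ERK itself induces, had 68.9, 60.5 and 74.9 in PC9 and 334.6, 413.7 and 348.3 in HCC827 (difference -2.29 ± 0.12, SE). The DMSO means of DUSP6 were 1357.8 and 1251.5, so the lines stood close there (gap difference -2.39, limma adjusted p = 1.97e-08). FOSL1, a subunit of the AP-1 factor, was lower in PC9 by -2.65, and PHLDA2 by -2.14. In contrast DUSP4, another phosphatase of the same family, was higher in PC9 at 576.4 ± 58.3 against 139.8 ± 8.92 (SD, n = 3), and so were EPHA4 and, by 0.48, the early response gene IER3. CCND1, the cyclin downstream of ERK, differed by 0.28 with its main probe set and by -0.20 when its probe sets were averaged, so no direction is given for it.

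Among 11 genes that neighbour EGFR or are EGFR itself, 8 were higher in HCC827, 1 higher in PC9 and 2 not called (median -0.45). LANCL2, the adjacent gene, was at 1863.1 ± 65.2 in HCC827 and 902.3 ± 27.0 in PC9 (SD, n = 3), a difference of -1.04 beside -1.21 in DMSO. The mitochondrial ribosomal gene MRPS17 differed by -0.68 in erlotinib and by 0.03 in DMSO. CHCHD2 was the gene toward PC9, by 0.15, and its sign turned to -0.06 under quantile normalization. Around CDKN2A, 7 of 9 genes were higher in HCC827, 1 higher in PC9 and 1 not called (median -0.75). MTAP, a methionine salvage enzyme beside CDKN2A, had 771.4, 727.0 and 814.7 in HCC827 and 168.7, 124.5 and 153.1 in PC9. CDKN2A, the inhibitor of CDK4 and CDK6, was measured well above background in both lines, at 1131.5 ± 66.3 and 754.1 ± 48.3. FOCAD (-2.02) and MLLT3 (-1.18) were also lower in PC9, and HACD4 was higher (2.66).

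Type I interferon response genes formed the most one-sided list toward HCC827. Of 39 tested, 36 were higher in HCC827 against a share of 40.1% over all genes, 34 of them by 2-fold or more against 12.8%. Only TRIM22 (0.61) and LGALS3BP (0.23) were called toward PC9 (limma adjusted p = 0.0244 and 0.0274), and 7 and 6 of the alternatives lost those calls. The median member differed by -2.11, and the median of the members' mean signals was 278 in HCC827 and 41.4 in PC9. XAF1, a proapoptotic gene, had 361.7, 387.0 and 308.3 in HCC827 and 4.9, 5.3 and 3.3 in PC9. IFI27, whose promoter is printed above, had 343.6, 333.3 and 269.4 against 8.8, 2.4 and 8.7, and IFI44L had 425.2, 345.9 and 300.3 against 9, 7 and 10.6. No PC9 array came near an HCC827 array for these genes, and the differences were -4.85 for XAF1, -4.49 for IFI27 and -4.43 for IFI44L.

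The other interferon genes with printed promoters were chosen for large differences among those with matches, so their direction is set by that choice. IFI44 had 38.1, 45.1 and 40.9 in PC9 and 706.3, 733.5 and 658.9 in HCC827. IFIT1, which binds viral RNA, had 13.2, 9 and 15.2 against 238.6, 223.5 and 217.3, and its partner IFIT3 had 62.8, 59.4 and 58.1 against 438.2, 434.5 and 419. All lay apart on every array, with differences of -3.84 for IFI44, -3.53 for IFIT1 and -2.69 for IFIT3. The separation was wider without drug: the list's median gap was -3.38 in DMSO, with 38 of 39 genes higher in HCC827 against 39.4% of all genes. The gap difference passed the test for 31 genes, all toward PC9, against 21.2% of all genes in that direction. In IFI44 the DMSO means were 8.83 in PC9 and 1703.4 in HCC827, which gives a gap of -6.69, narrower in erlotinib by 2.85 (limma adjusted p = 3.27e-09).

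Genes of class I antigen presentation, which loads peptides onto HLA molecules, had a smaller median gap in erlotinib than in DMSO. Most members still differed in erlotinib, with 78.9% called against 76.4% of all genes. Of 19 tested, 10 were higher in HCC827, 5 higher in PC9 and 4 not called, and the median of -0.31 compared with -1.22 in DMSO. With all probe sets of a gene averaged, 12 were higher in HCC827 and 4 in PC9, and the erlotinib median was -0.47. The gap difference passed for 16 genes, 15 toward PC9 and 1 toward HCC827, against 21.2% and 23.9% of all genes. PSMB9, an immunoproteasome subunit, showed it most plainly, with 208.5, 211.4 and 203.6 in PC9 and 311.8, 323.4 and 310.0 in HCC827, while the DMSO means were 14.3 and 253.3. Its gap was -0.58 in erlotinib and -3.55 in DMSO. The peptide transporter TAP2 (-1.93), HLA-C (-1.51) and HLA-G (-0.99) were higher in HCC827. The aminopeptidase ERAP2 (3.17), HLA-E (0.78) and the peptide loading factor TAPBP (0.38) were higher in PC9, and the HLA genes share sequence, so their members are uncertain. Of 7 class II genes tested, 5 were higher in HCC827, 1 higher in PC9 and 1 not called. The protease CTSS (-3.46) was furthest, and HLA-DMB (-1.57) and HLA-DRB1 (-1.36) had signals under 40 in both lines. HLA-DMA was the member toward PC9 (0.51).

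**Figure D2:**
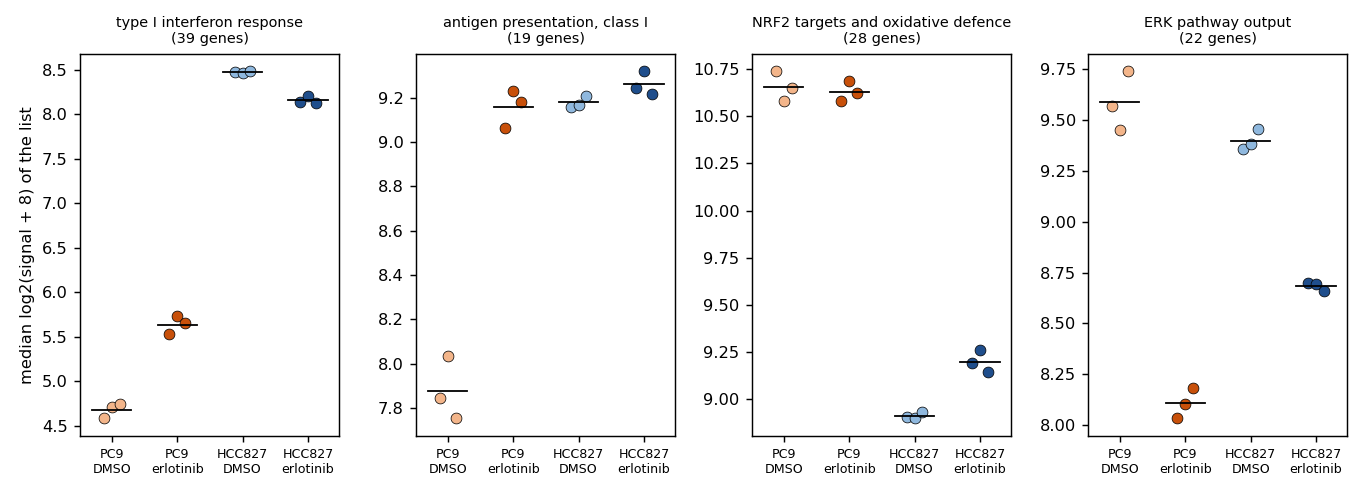
Median log2(signal + 8) over the tested members of 4 gene lists, with 1 point per array and a bar at the mean of the 3 arrays; the vertical scale differs between panels. Interferon genes were at 5.64 in erlotinib-treated PC9 and 8.16 in erlotinib-treated HCC827, NRF2 targets at 10.63 and 9.20, and ERK output genes at 8.11 and 8.68, below both DMSO groups.

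Chemokines divided by gene. Of 20 chemokines and receptors tested, 12 were higher in HCC827, 11 of them by 2-fold or more, 4 were higher in PC9 and 4 not called (median -1.21). Without a filter, 13 of 30 were higher in HCC827 and 5 in PC9, with a median of -0.23. CXCL5, which attracts neutrophils, had 796.4, 683.3 and 889.2 in HCC827 and 2.9, 3.1 and 3.8 in PC9. CCL2, which attracts monocytes, had 606.8, 568.0 and 541.2 against 5.4, 2.5 and 5.1, and the interferon-induced CXCL10 had 263.7, 249.0 and 239.6 against 7.8, 7.4 and 10.7. The 3 genes were separate on all arrays, and they differed in what DMSO showed: the CXCL5 gap was -6.26 there, and that of CCL2 was -0.57. PPBP, a precursor of neutrophil-attracting peptides, went the other way, with 830.9, 887.7 and 732.0 in PC9 and 2.3, 2.5 and 3.1 in HCC827. The scavenging receptor ACKR3 (2.27) and CXCL17 (1.10) were also higher in PC9. Among 25 NF-kB targets and cytokine genes, 12 were higher in HCC827, 5 higher in PC9 and 8 not called (median -0.20, which was -0.01 without PC9 erlotinib array 1 and 0.01 without HCC827 erlotinib arrays 2 and 3), from IL7R (-2.86), TRAF1 (-2.15) and IL1R2 (-1.42) to IL1RL1 (1.87), PTGS2 (1.48) and TNFAIP2 (1.08).

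Complement genes leaned to PC9. Of 13 tested, 11 were higher in PC9 against 36.3% of all genes, 4 of them by 2-fold or more against 11.0%. The other 2 were higher in HCC827, each by 2-fold or more. The median was 0.85 beside 0.04 in DMSO, where 4 were higher in PC9 and 5 in HCC827. Without a filter the erlotinib median of 20 genes was 0.26. In the 13 genes, 10 gap differences passed toward PC9 and 1 toward HCC827, against 21.2% and 23.9% of all genes. C3, the central component, had 733.7, 805.0 and 691.9 in PC9 and 8.1, 9.7 and 14.7 in HCC827. C4BPB, a regulator, had 348.2, 355.1 and 307.7 against 31.7, 33.7 and 32.1, and the protease C1S had 324.3, 332.4 and 322.0 against 41.3, 47.2 and 40.1. The arrays of each line stood apart, at 5.33 for C3, 3.09 for C4BPB and 2.72 for C1S, and the DMSO gaps of C4BPB and C1S were 0.17 and 0.04. The genes toward HCC827 were CFI (-3.97) and CFB (-1.62), a protease that degrades C3b and a component of the C3 convertase. Among 19 immune checkpoint and NK cell ligand genes, 10 were higher in PC9, 6 higher in HCC827 and 3 not called (median 0.27). CD274, which encodes PD-L1, was higher in HCC827 at 600.5 ± 18.1 against 231.2 ± 28.0 (SD, n = 3), as was MICA (-2.37), while TNFSF4 (2.02), VSIR (1.92) and NECTIN2 (1.71) were higher in PC9.

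NRF2 targets and oxidative defence genes were the most one-sided list toward PC9. Of 28 tested, 26 were higher in PC9 against 36.3% over all genes, 11 of them by 2-fold or more against 11.0%, 2 were not called and 0 were higher in HCC827. The median was 0.87 in erlotinib and 0.88 in DMSO, and in DMSO 25 of the 28 were called toward PC9, against 36.8% of all genes. AKR1C2 had 3358.9, 3849.7 and 3662.3 in PC9 and 27.3, 19.3 and 17.6 in HCC827. AKR1C1 had 3008.8, 3734.5 and 3280.5 against 26.4, 32.3 and 16.1, and AKR1B10, an aldose reductase relative, had 2899.0, 3470.1 and 3039.6 against 35.9, 39.1 and 35.6. In all 3 genes each PC9 array exceeded each HCC827 array, with differences of 6.96, 6.70 and 6.13. Of the genes with printed promoters, GPX2, a glutathione peroxidase, had 1354.0, 1558.2 and 1479.7 against 24.9, 21.1 and 21.5. PGD, an enzyme of the pentose phosphate pathway, had 1099.4, 1298.3 and 1160.4 against 370.2, 345.6 and 278.2, and GCLM, a subunit of the enzyme that starts glutathione synthesis, had 1965.4, 1767.8 and 1842.7 against 970.1, 873.5 and 971.6. These correspond to 5.59, 1.82 and 0.98, so the separation ranged widely within the list.

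Among 33 genes of xenobiotic metabolism and aldehyde dehydrogenases, 22 were higher in PC9, 10 higher in HCC827 and 1 was not called (median 0.57, beside -0.15 in DMSO). ALDH3A1, an aldehyde dehydrogenase, had 838.4, 951.3 and 865.7 in PC9 and 3, 9.6 and 11.5 in HCC827. GSTM1, a glutathione transferase, was at 860.3 ± 41.4 against 38.9 ± 0.51, and the glucuronosyltransferase UGT1A6 at 157.7 ± 30.6 against 1.63 ± 1.06 (SD, n = 3). HCC827 was higher for NNMT, a nicotinamide methyltransferase (-6.02), for another glutathione transferase, GSTT1 (-4.10), and for CYP1A1, the oxidase induced by aryl hydrocarbons (-3.92). CYP1A1 had a DMSO gap of -1.58. Of 7 metallothioneins and zinc genes tested, 6 were higher in HCC827, 5 by 2-fold or more (median -1.52). MT1G (-1.87), MT1H (-1.81) and MT1F (-1.60) led, with near-identical sequences that the array may not separate, and the zinc exporter SLC30A1 was higher in PC9 (0.55).

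**Figure D3:**
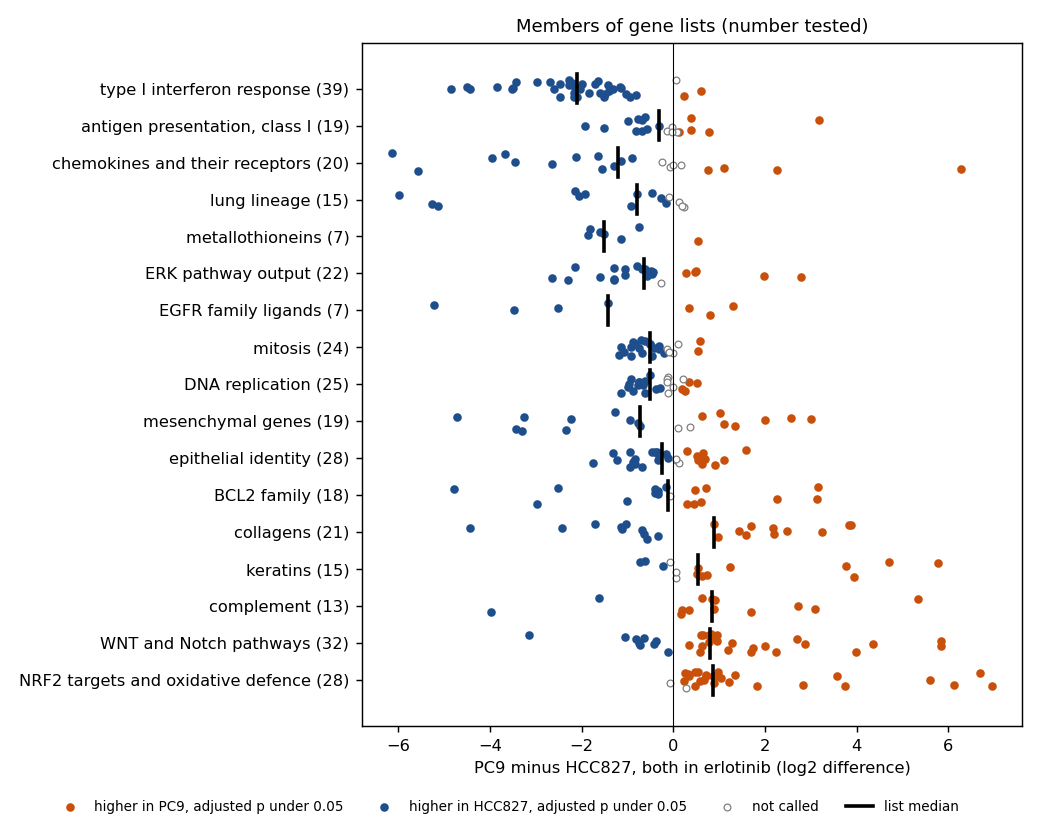
Difference between the lines in erlotinib (horizontal axis, log2, PC9 minus HCC827) for each tested member of 17 gene lists, with a black bar at each list's median and vertical scatter added for legibility only. Interferon genes lie to the left with a median of -2.11 and NRF2 targets to the right with a median of 0.87, while lists such as the BCL2 family spread to both sides.

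Most of the lung lineage genes that were called were higher in HCC827. NKX2-1, the master factor of lung epithelium, had 2062.5, 1987.7 and 1753.1 in HCC827 and 55.1, 38.0 and 48.9 in PC9 (difference -5.14 ± 0.14, SE; limma adjusted p = 7.85e-15). The gap was -6.59 in DMSO, and it was narrower in erlotinib by 1.45 (limma adjusted p = 2.84e-05). Of 15 lung lineage genes tested, 11 were higher in HCC827 against 40.1% of all genes, 0 in PC9 and 4 were not called. The erlotinib median was -0.79, beside -0.18 in DMSO. Without a filter, 12 of 25 were higher in HCC827 and 2 in PC9, with a median of -0.24. The surfactant-associated SFTA2 (-5.98) and SFTA3 (-5.26) had signals of at most 0.6 on every PC9 array. NAPSA, the alveolar protease, was at 59.7 ± 1.8 in HCC827 and 10 ± 3.84 in PC9, while the surfactant genes SFTPB and SFTPC were near 20 to 30 in both lines, just above the array median.

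Epithelial identity genes were split, with 16 of 28 higher in HCC827, 9 higher in PC9 and 3 not called (median -0.25). The claudins CLDN3 (-1.75) and CLDN4 (-1.22) and P-cadherin, CDH3 (-1.32), were higher in HCC827, and the vesicle GTPase RAB25 (1.58), MUC1 (1.11) and CLDN1 (0.91) were higher in PC9. CDH1, which encodes E-cadherin, was at 2684.1 ± 156.4 in HCC827 and 2108.0 ± 190.4 in PC9 (SD, n = 3; difference -0.35, limma adjusted p = 7.13e-05). MUC1 stood the other way in DMSO, with means of 59.0 in PC9 and 620.8 in HCC827.

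The mesenchymal list was also split, with 10 of 19 higher in HCC827, 7 higher in PC9 and 2 not called. N-cadherin, CDH2, had 389.9, 412.8 and 422.7 in HCC827 and 7, 7 and 9.6 in PC9, and ZEB1, a repressor of E-cadherin, had 193.2, 190.6 and 207.2 against 10.9, 10.7 and 10.9. VIM, the intermediate filament vimentin, was at 951.6 ± 39.0 against 180.5 ± 19.9 (SD, n = 3). In all of these HCC827 was higher on each array, as it was for TWIST2 (-3.31). TWIST1, a close relative, went to PC9, with 194.5, 134.6 and 153.8 against 22, 14.9 and 25.2, and so did periostin, POSTN (3.00). The list's median of -0.72 turned to 0.10 when only genes above the 70th percentile of signal were kept.

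Matrix genes separated by chain rather than as a class. Of 21 collagens tested, 11 were higher in PC9, 9 of them by 2-fold or more, and 10 were higher in HCC827, 6 by 2-fold or more. COL12A1, a fibril-associated chain, had 1646.1, 1578.1 and 1622.0 in PC9 and 114.5, 92.5 and 102.4 in HCC827. The basement membrane chains went in opposite directions, as COL4A4 was at 580.0 ± 58.9 in PC9 and 33.4 ± 5.58 in HCC827, while COL4A2 was at 19.2 ± 3.64 and 575.0 ± 50.8 (SD, n = 3). COL4A1 (-2.44), the partner of COL4A2, and COL5A2 (-1.70) were higher in HCC827, and COL16A1 (3.25) in PC9. Of 22 integrins and laminins, 14 were higher in HCC827, 6 higher in PC9 and 2 not called (median -0.59). The laminin chain LAMA4 was the furthest, with 863.1, 847.8 and 792.9 in PC9 and 4.5, 4.9 and 5.5 in HCC827. LAMB2 (1.35) and ITGB3 (1.10) followed in PC9, and LAMA2 (-1.42), ITGB2 (-1.38) and ITGA7 (-1.10) were higher in HCC827.

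Keratins were more often higher in PC9, and squamous genes were divided. Of 15 keratins tested, 9 were higher in PC9 against 36.3% of all genes, 5 of them by 2-fold or more against 11.0%. Another 3 were higher in HCC827 and 3 were not called (median 0.53). The keratin median was 0.52 in DMSO, with 9 higher in PC9 and 5 in HCC827. KRT13 had 511.3, 589.3 and 538.4 in PC9 and 0.5, 3.2 and 3 in HCC827, and the basal keratin KRT5 had 270.8, 313.5 and 297.0 against 1.2, 6.3 and 3.7. KRT23 was higher in PC9 by 3.95. The HCC827 arrays were at background for KRT13 and KRT5, and the keratins toward HCC827 were further from background in both lines and closer together: KRT80 (-0.73), KRT4 (-0.61) and KRT10 (-0.22). The call of KRT10 was lost in 5 alternatives and that of KRT4 in 3, and neither of the other probe sets of KRT10 was called. Of 16 cornified envelope and squamous genes, 8 were higher in PC9, 4 higher in HCC827 and 4 not called (median 0.30, which was 0.52 without HCC827 erlotinib array 2 and 0.67 with the filter on the erlotinib groups alone). In DMSO 5 were higher in PC9 and 9 in HCC827 (median -0.61). The skin proteases KLK5 (6.50) and KLK7 (4.99) and the elastase inhibitor PI3 (5.18) led in PC9. The desmosomal cadherins DSC3 (-4.93) and DSC2 (-2.07) and the cornified envelope protein SCEL (-2.52) led in HCC827.

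Of 15 S100 calcium-binding genes, 11 were higher in PC9, 3 higher in HCC827 and 1 not called (median 0.46). S100P had 2041.9, 1989.8 and 2133.0 in PC9 and 28.3, 35.0 and 31.4 in HCC827, and the calprotectin chains S100A9 (2.92) and S100A8 (2.28) were also higher in PC9. S100A2 (-2.18), S100A3 (-1.05) and S100A6 (-0.23) were higher in HCC827. The S100P gap had been 1.77 in DMSO. Of 19 mucins and secretory genes, 10 were higher in PC9, 8 by 2-fold or more, 6 were higher in HCC827, all by 2-fold or more, and 3 were not called (median 0.55). CEACAM6, an adhesion glycoprotein with near-identical relatives, was at 1796.0 ± 175.2 in PC9 and 73.2 ± 7.21 in HCC827, and SLPI, an inhibitor of leukocyte proteases, at 1705.4 ± 99.6 and 113.6 ± 9.25 (SD, n = 3). BPIFB1, an airway secretory protein, was at 121.7 ± 12.9 and 0.53 ± 0.21. Toward HCC827 stood MUC16 (-2.73), CEACAM1 (-2.38) and PIGR, the polymeric immunoglobulin receptor (-2.12), whose gap had been -5.90 in DMSO.

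Genes of cell division were lower in PC9 by modest amounts. Of 24 mitotic genes, 18 were higher in HCC827 against 40.1% of all genes, 3 of them by 2-fold or more against 12.8%. Another 2 were higher in PC9 and 4 not called (median -0.51). With all probe sets of a gene averaged, 15 were higher in HCC827 and 4 in PC9, with the same median. Part of this was present without drug, as the mitotic DMSO median was -0.26, with 12 higher in HCC827 and 5 in PC9. The gap difference passed for 9 mitotic genes, all toward HCC827. Of 25 DNA replication genes, 15 were higher in HCC827, 1 by 2-fold or more, 4 were higher in PC9 and 6 not called (median -0.51, beside -0.04 in DMSO). The replication median was -0.23 with all probe sets of a gene averaged and -0.39 with the actin ratio as a covariate. For replication, 16 gap differences passed, all toward HCC827, against 23.9% of all genes in that direction. The mitotic kinase AURKB had 188.7, 324.9 and 342.4 in PC9 and 654.4, 707.4 and 550.3 in HCC827, with PC9 lower on every array. TYMS, the thymidylate synthase, was at 579.3 ± 27.5 against 1139.8 ± 116.5, and MKI67, a marker of cycling cells, at 222.6 ± 20.7 against 320.9 ± 17.1 (SD, n = 3). CDC20 (-1.08), ORC1 (-1.15) and CDT1 (-0.98) followed the same direction, whereas PLK1 (0.54), NDC80 (0.59), GINS4 (0.51), RFC4 (0.35) and MCM10 (0.26) were higher in PC9. BUB1 differed by -1.13, but other probe sets of the gene gave 0.38 and 0.39, so no direction is given. It is still counted above among the mitotic genes higher in HCC827 by 2-fold or more.

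Of 22 cell cycle inhibitors and FOXO targets, 12 were higher in HCC827, 6 higher in PC9 and 4 not called (median -0.40). With all probe sets of a gene averaged, 10 were higher in HCC827 and 9 in PC9, and the median was -0.08. CDKN1C, an inhibitor of cyclin-dependent kinases, had 174.7, 144.3 and 145.9 in HCC827 and 17.4, 9.8 and 8 in PC9. SESN3, a FOXO target (-2.26), and the pocket protein RBL1 (-1.68) were higher in HCC827. The insulin receptor substrate IRS2 (1.58), SESN1 (1.41) and FOXO1 (0.85) were higher in PC9.

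The BCL2 family, which sets the threshold for apoptosis, was among the most evenly split lists: of 18 tested, 9 were higher in HCC827, 8 higher in PC9 and 1 not called. BCL2A1, a protective member, had 337.7, 312.8 and 318.1 in HCC827 and 4.3, 3.7 and 3.8 in PC9. BCL2, also protective, had 94.8, 89.4 and 81.6 in PC9 and 1.9, 2.6 and 4.4 in HCC827. The differences were -4.79 for BCL2A1 and 3.14 for BCL2, and the other BCL2 probe set above the filter was not called. Of the proapoptotic members, HRK (3.16) and BID (2.27) were higher in PC9 and BIK (-2.98) in HCC827. BCL2L11, which encodes BIM, the mediator of death after EGFR inhibition, was at 479.5 ± 17.1 in PC9 and 386.8 ± 9.21 in HCC827 (SD, n = 3; difference 0.30, limma adjusted p = 0.00452). BCL2L15 was higher in HCC827 (-2.52). The list's median of -0.12 turned to 0.10 when all probe sets of a gene were averaged.

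Of 22 genes used as markers of drug tolerance and stem cells, 9 were higher in PC9, 9 higher in HCC827 and 4 not called, with a median of 0.02 that took the opposite sign under quantile normalization and median centring. FGF2, a fibroblast growth factor, had 776.5, 676.3 and 730.7 in HCC827 and 0.4 on each PC9 array. The stem cell factor SOX2 (-2.07) and the histone demethylase KDM6A (-2.05) were also higher in HCC827. IGFBP2 (2.02) and NOTCH3 (1.99) were higher in PC9 along with ALDH3A1. KDM5A, a histone demethylase linked to tolerance in PC9, had 656.2, 580.1 and 709.7 in PC9 and 692.1, 626.0 and 651.4 in HCC827, and its difference of -0.02 ± 0.08 (SE) was not called (limma adjusted p = 0.825). Its sign turned under quantile normalization. Of its 4 other probe sets, all above the filter, 1 was called toward HCC827, 1 toward PC9 (0.68) and the rest were not called.

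WNT and Notch pathway genes leaned to PC9. Of 32 tested, 23 were higher in PC9 against 36.3% of all genes, 12 of them by 2-fold or more against 11.0%. Another 9 were higher in HCC827, 2 by 2-fold or more (median 0.80). The lean was present without drug, with a DMSO median of 0.60 and 19 genes higher in PC9 and 5 in HCC827. SFRP1, a secreted antagonist of WNT, had 531.3, 556.8 and 529.2 in PC9 and 1.6, 1.3 and 1.7 in HCC827, and LEF1, a nuclear mediator of WNT, had 559.0, 523.3 and 561.5 against 3.4, 1.5 and 0.5. AXIN2, a WNT target, was at 242.3 ± 42.5 against 4.2 ± 1.54 (SD, n = 3). All PC9 arrays were well above HCC827 for these. DKK3 (-3.15), the Notch target HEY1 (-1.06) and the ubiquitin ligase RNF43 (-0.81) were higher in HCC827.

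Of 31 TGF-beta and BMP genes, 18 were higher in PC9, 11 higher in HCC827 and 2 not called (median 0.28, beside -0.39 in DMSO). The BMP target ID2 had 410.8, 339.9 and 372.9 in HCC827 and 5.9, 7.1 and 10.9 in PC9, and the ligand BMP2 (-4.02) and the receptor BMPR1B (-3.46) were higher in HCC827 as well. The activin chain INHBB (3.64), the latency protein LTBP1 (3.11) and BMP4 (2.46) were higher in PC9. Of 26 YAP and TAZ targets, 13 were higher in HCC827, 10 higher in PC9 and 3 not called (median -0.06, which was 0.05 with the actin ratio as a covariate). CCDC80 (2.86), AMOTL1 (1.82) and AXL led in PC9, and RBMS3 (-4.49), FJX1 (-1.77) and CCN2 (-1.59), the connective tissue growth factor, in HCC827.

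Of 15 HOX genes, 8 were higher in HCC827 and 7 in PC9, and the median of -0.62 turned to 0.03 with probe sets averaged. HOXC10 (-3.15), HOXB9 (-2.88) and HOXB2 (-2.10) led in HCC827, and HOXC13 (2.16), HOXB3 (0.96) and HOXB7 (0.74) in PC9. Of 24 cholesterol and fatty acid synthesis genes, 13 were higher in PC9, 7 higher in HCC827 and 4 not called (median 0.22). The sterol pathway enzymes HMGCS1 (1.18), IDI1 (1.12) and SQLE (1.08) were higher in PC9, and the fatty acid synthesis enzymes ACLY (-1.37) and FASN (-0.74) and the sterol carrier STARD4 (-4.36) in HCC827.

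Of 29 glycolysis and hypoxia genes, 13 were higher in PC9, 10 higher in HCC827 and 6 not called, with a median of 0.09 that turned under quantile normalization. The glucose transporter SLC2A3 had 1462.0, 1323.8 and 1375.3 in PC9 and 7, 9.2 and 5.4 in HCC827. ADM (1.90) and EGLN3 (1.52) were higher in PC9, and ENO2 (-4.01), ANGPTL4 (-1.99) and BNIP3 (-1.72) in HCC827. Of 11 neuroendocrine and neuronal markers, 5 were higher in each line and 1 was not called, with a median of 0.04 that other scalings brought to 0 or below. NCAM1 (4.03) and MAP2 (1.26) followed UCHL1 in PC9, and CPE (-3.81), SYT1 (-2.91) and SCG5 (-2.56) were higher in HCC827. Of 5 tested markers of leukocytes, endothelium and fibroblasts, 3 were higher in PC9 and 2 in HCC827 (median 2.08). That median rests on the few markers that passed the filter. Without a filter, 3 of 20 were higher in PC9 and 4 in HCC827, with a median of 0.03. PECAM1 had 521.7, 477.3 and 520.4 in PC9 and 6.3, 6.8 and 6.1 in HCC827, CDH5 was higher by 4.01 and the integrin ITGAM by 2.08, while LUM (-0.78) and COL1A1 (-0.64) were higher in HCC827.

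Most of the separation was present without drug. Between the DMSO groups, 10039 genes (76.2%) differed, 3100 of them (23.5%) by 2-fold or more. Across the 13181 genes the erlotinib gap and the DMSO gap had a Pearson correlation of 0.847, given as a description because genes are not independent and each line is on both sides. The median absolute gap was 0.50 in both. Of the 3145 genes with a 2-fold call in erlotinib, 2844 (90.4%) were called in the same direction in DMSO and 2048 (65.1%) by 2-fold or more. Another 245 (7.79%) were not called in DMSO, and 239 of these passed the test of the gap difference. In 56 (1.78%) the DMSO call was opposite, and all 56 passed that test. The gap in erlotinib was significantly wider for 1192 of the 3145 and narrower for 554, where the test called 45.2% of all genes. These genes were selected for a large gap in erlotinib, which by itself favours passing the test and a wider gap, so the counts are descriptions and no support for a change.

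**Figure D4:**
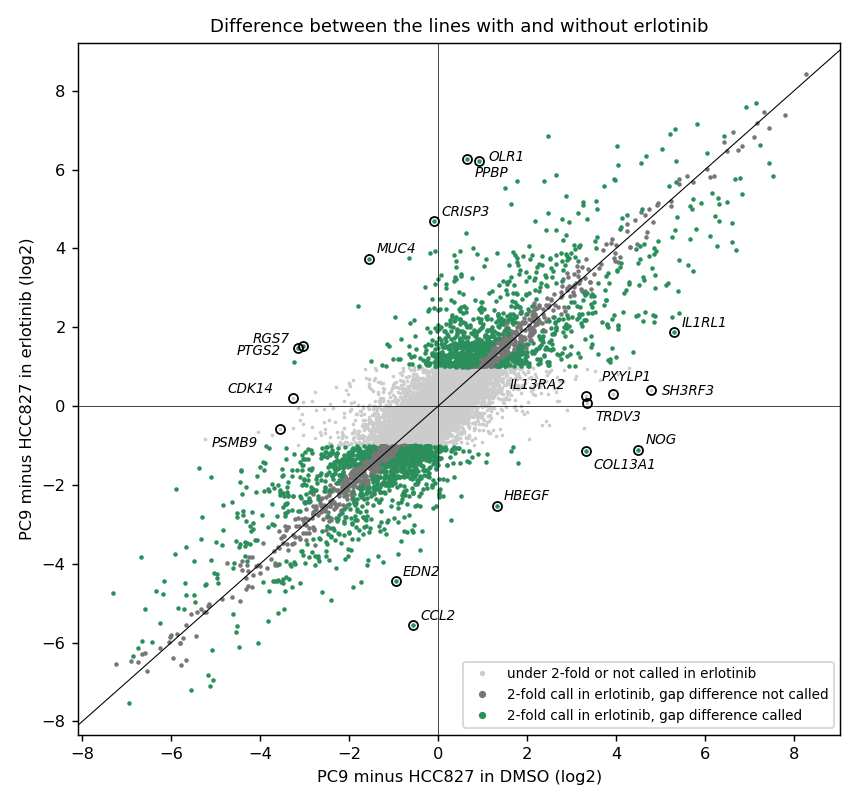
Difference between the lines in DMSO (horizontal) and in erlotinib (vertical), both log2, PC9 minus HCC827, with 1 point per gene tested and a line of equal gaps. Circled genes are those named for the largest changes of the gap, which lie far from the line, such as NOG at 4.50 in DMSO and -1.11 in erlotinib.

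Among the genes with a 2-fold call in erlotinib, 6 were named for the largest move of the gap toward PC9. PPBP was described with the chemokines. OLR1, a scavenger receptor for oxidised lipoprotein, had 1279.9, 1389.0 and 1379.6 in PC9 and 12.4, 11.0 and 7.9 in HCC827, with DMSO means of 11.0 and 1.83. CRISP3, a secreted cysteine-rich protein, had 236.5, 200.7 and 186.5 against 0.1, 0.2 and 0.6, with both DMSO groups below 1. These 3 genes were at background in HCC827 throughout and bright in PC9 only with erlotinib. MUC4, a membrane mucin, changed sides: it had 251.1, 276.1 and 272.9 in PC9 and 9.8, 10.4 and 18.3 in HCC827, while the DMSO means were 37.3 and 124.4. PTGS2, the inducible cyclooxygenase, did the same, with 493.3, 438.5 and 426.2 in PC9 and 153.2, 192.5 and 129.1 in HCC827 beside DMSO means of 6.47 and 119.9. RGS7, a regulator of G-protein signalling, had a gap of 1.52 in erlotinib and -3.03 in DMSO.

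Another 6 genes were named for the move toward HCC827, HBEGF and CCL2 among them. NOG, the secreted BMP antagonist noggin, had 288.2, 266.8 and 312.2 in PC9 and 621.0, 593.5 and 678.3 in HCC827, whereas the DMSO means were 1602.1 in PC9 and 62.8 in HCC827. Its lines thus exchanged order, with a gap difference of -5.61 (limma adjusted p = 2.19e-13). EDN2, a vasoactive endothelin, had 403.4, 453.7 and 418.4 in HCC827 and 10.8, 12.3 and 12.8 in PC9, with DMSO means of 18.1 and 5.53. COL13A1, a transmembrane collagen, was at low signals in both lines in erlotinib (6.87 ± 1.26 and 24.7 ± 3.93, SD, n = 3) and had been at 195.8 in PC9 in DMSO. IL1RL1, the receptor for interleukin-33, stayed higher in PC9, by 1.87 in erlotinib and by 5.31 in DMSO.

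**Figure D5:**
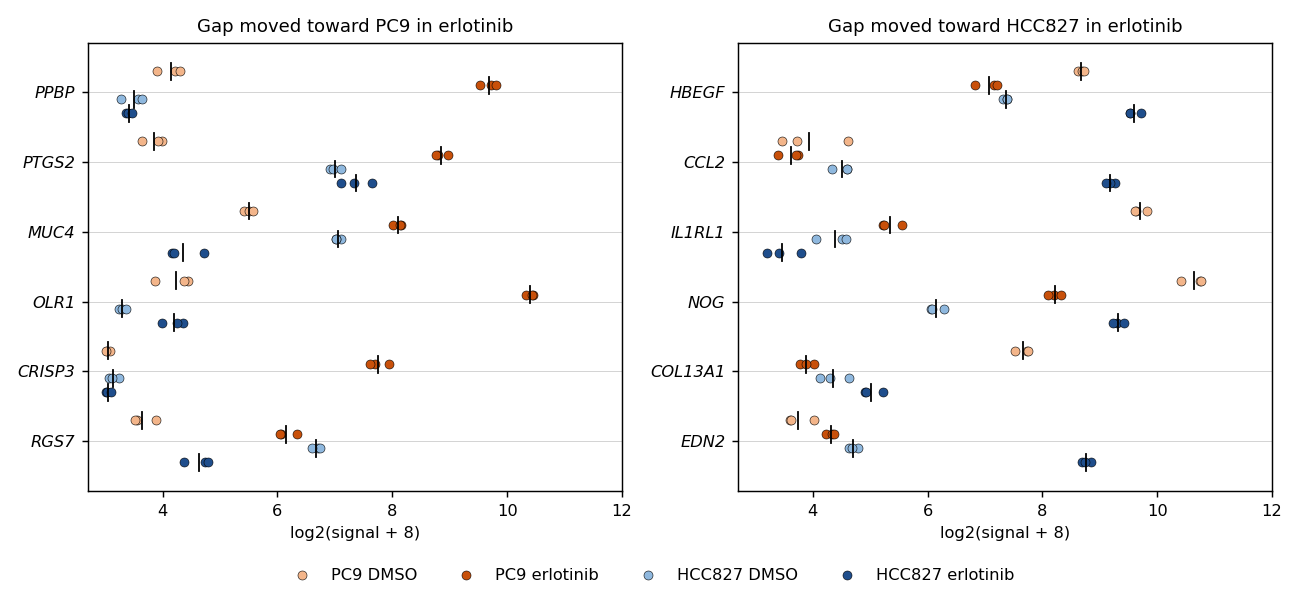
Signals, as log2(signal + 8), of the 12 genes with a 2-fold call in erlotinib and the largest changes of the gap, 6 in each direction, with 1 point per array and a bar at each group mean. The erlotinib groups of MUC4, PTGS2, RGS7, NOG, HBEGF and COL13A1 stand in the opposite order to the DMSO groups.

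Some differences seen in DMSO were small in erlotinib. Of the 3100 genes with a 2-fold call in DMSO, 448 (14.5%) were under 1.5-fold in erlotinib and passed the test of the gap difference. Choosing genes by a large DMSO gap by itself favours a narrower gap in erlotinib, so this count is a description and no support for a change. CDK14, a cyclin-dependent kinase, had 513.4, 450.0 and 361.4 in PC9 and 361.9, 359.2 and 419.4 in HCC827, which overlap, while the DMSO means were 28.7 and 339.1. PXYLP1, a phosphatase of proteoglycan synthesis, had 213.8, 173.8 and 174.9 against 143.6, 140.5 and 164.7, beside DMSO means of 436.4 and 21.2. SH3RF3, which had 18.2, 28.5 and 41.0 against 18.5, 25.2 and 14.4 in erlotinib, had a DMSO mean of 310.1 in PC9 and 3.57 in HCC827. For IL13RA2 and TRDV3 both lines were at background in erlotinib, and PC9 had means of 86.3 and 82.5 in DMSO. PSMB9, described above, completes the 6 genes named for the largest DMSO gaps that were under 1.5-fold in erlotinib. For PSMB9 and PXYLP1 the arrays of the lines still did not overlap in erlotinib, so those gaps were smaller but not closed.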

How the data were processed

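The authors deposited MAS5 signal intensities for the 12 arrays, made with MAS5 per the submitters' processing notes; on the values, each array's mean after trimming 2% at each end was 150. A MAS5 signal subtracts mismatch probes and is noisy at low levels. No aligner or build applies, and the array's annotation was GEO's, matched by gene ID to RefSeq symbols. Of 54675 probe sets, 41091 named 1 gene, 1801 several and 11721 none, and those naming 1 gene were used. Y-linked genes and XIST (59 probe sets) were left out. Each gene was represented by its brightest probe set (mean log2 over the 12 arrays), and genes whose 4 group means all lay under the table's median of 13.0 were not tested. limma 3.58.1 (R 4.3.3) fitted log2(signal + 8) over all 4 groups of 3 arrays, with an intensity trend and Benjamini-Hochberg adjustment, and its code was tested on simulated data. The number of arrays limits the precision, and the median SE of a difference was 0.10.

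Gene lists (37, with 966 genes, of which 876 were on the array, 709 tested and 167 under the filter) and the members were chosen with earlier results of these data known, so no list supports a conclusion by itself. Named genes were the 10 largest differences each way without overlap of arrays, up to 3 called members of each list in each direction, a set of lung cancer genes (ALDH1A1, in that set, was under the filter), the 6 largest gap differences each way among 2-fold calls, and the 6 largest DMSO gaps under 1.5-fold in erlotinib. Genes of printed promoters were added for their matches, and the motif letters were shortened by 1 base after a search with the longer forms, so they match more promoters. Alternatives changed 1 choice at a time: pseudocount, scaling, filter, probe set rule, variance model, arrays in the fit, replicate number as a block, a 1.5-fold test and the actin ratio.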

Additional observations from a re-analysis of the deposited data

Results flagged for a closer look

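The genes below were picked out because the difference between the lines in erlotinib was itself different from the one in DMSO by the limma test of that difference (adjusted over all genes tested). The test was passed by 5953 genes (45.2%), and agent and plating cannot be told apart, nor vessel if the treatment protocol holds. Among genes with a 2-fold call in erlotinib, the gap moved most toward PC9 in PPBP (5.63), MUC4 (5.29), OLR1 (5.28), CRISP3 (4.79), PTGS2 (4.63) and RGS7 (4.55). Among the same genes it moved most toward HCC827 in NOG (-5.61), CCL2 (-4.99), COL13A1 (-4.45), HBEGF (-3.84), EDN2 (-3.48) and IL1RL1 (-3.44). Among gaps that were large in DMSO and small in erlotinib, the moves were -4.37 in SH3RF3, -3.62 in PXYLP1, -3.25 in TRDV3, -3.07 in IL13RA2, 3.48 in CDK14 and 2.97 in PSMB9. TRDV3 is a gene segment of the T-cell receptor, and the leukocyte markers PTPRC and CD3E were at background in all groups.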

How the results depend on the processing

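Counts of called genes stayed within 1.5 times of the main count under every alternative but a pair of them. With each probe set tested singly, 19362 probe sets were called in erlotinib (9920 higher in PC9, 9442 in HCC827), 6073 of them by 2-fold or more (3089 and 2984), 18905 in DMSO, and 10523 gap differences, since more features were tested. Against a 1.5-fold difference, 3951 genes were called in erlotinib (1814 and 2137), 3877 in DMSO and 1129 gap differences. Leaving out single arrays, or HCC827 arrays 2 and 3 together, gave 8697 to 9816 calls in erlotinib (4253 to 4675 higher in PC9, 4444 to 5202 in HCC827), 3131 to 3204 by 2-fold or more (1441 to 1494 and 1661 to 1752), 9543 to 10092 in DMSO and 4195 to 5948 gap differences. The labels give same-numbered arrays of the lines nothing in common but the number. Their deviations correlated at 0.057, 0.185 and -0.029, and not every array correlated best with its own number. With 3 arrays a group, these values cannot decide if the arrays were paired. With the replicate number as a block, 10011 genes were called in erlotinib, 9965 in DMSO and 5758 gap differences.

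Some small values changed sign, and the cause was not tested. Under quantile normalization they were -0.057 for CHCHD2, 0.004 for KDM5A and -0.045 for the glycolysis and hypoxia median. With probe sets averaged they were -0.198 for CCND1, 0.019 for KDM5A, -0.039 for TRDV3, 0.096 for the BCL2 family median and 0.031 for the HOX median. The collagen median was -0.029 without a filter and the mesenchymal median 0.098 with the filter at the 70th percentile. Without a filter some list medians were smaller in size: 0.07 for keratins, 0.01 for squamous genes and 0.21 for mucins and secretory genes. They were -0.95 for metallothioneins and -0.26 for EGFR family ligands, whose median was -1.42 with the filter. KDM5A ranged from -0.087 to 0.056 and TRDV3 from -0.060 to 0.182 when single arrays were left out, and they were -0.097 and -0.024 without HCC827 arrays 2 and 3 together. Without those 2 arrays the NF-kB list median was 0.01. For named genes the alternatives gave the same call 4894 times, lost it 80 times, 32 of these against 1.5-fold, gained it 7 times and turned the sign 10 times. The all-gene median was -0.036, and -0.054 and -0.074 under quantile normalization and median centring.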

Other observations

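Some gene families, a few of whose members are also in the lists above, lay on one side in erlotinib. They were noticed after their values were seen, so the counts are descriptions only, and their members can share probes. All 4 MAGEA cancer-testis antigen genes tested were higher in PC9, with a median difference of 6.19, while of the wider group of 12 cancer-testis genes (MAGE, GAGE, CT, SSX and XAGE) 8 were higher in PC9 and 4 in HCC827 (median 1.96). Higher in PC9 were also all 5 kallikrein genes, with a median of 4.19, and all 4 aldo-keto reductase genes of the AKR1 group, with a median of 6.41. Of 11 protocadherin genes tested, 10 were higher in HCC827, 6 of them by 2-fold or more, and 0 were higher in PC9 (median -2.01). Of 439 zinc finger genes, 152 were higher in PC9 and 180 in HCC827, with a median of -0.09, which is close to the median over all genes.

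Of 234 named genes called between the erlotinib groups, 138 had further probe sets above the filter, and for 136 of these no called probe set gave the opposite direction. The exceptions were BUB1 and CCND1. None of the other probe sets above the filter was called for KRT10, TAPBP, BCL2, COL1A1, CDH1 and COL13A1.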
